A study of Mus musculus with 27 samples.

Results

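The 9 genes of glucose uptake, glycolysis and glycogen control described here were followed in 3T3-L1 cells, a mouse preadipocyte fibroblast line, before and during the first hours and days of adipogenic induction. They are the glucose transporter genes Slc2a1 (Glut1) and Slc2a4 (Glut4), Hk2 for hexokinase 2, Pfkfb3 for the enzyme that sets fructose 2,6-bisphosphate, Ldha for lactate dehydrogenase A, Pdk4 for pyruvate dehydrogenase kinase 4, Gys1 for glycogen synthase, Ppp1r3c for a glycogen-targeting subunit of protein phosphatase 1, and Gfpt2, which opens the hexosamine pathway. They were chosen by name, and all 9 were found, each with 1 probe set, among the 19938 genes tested. Total RNA was measured on 27 arrays, in 9 groups of 3 that the series design text calls biological triplicates, and p-values rest on the spread between arrays of a group, pooled over the 9 groups.

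All cells carried a retroviral pMIG construct, either the empty vector or Flag-ISL1, a tagged form of the LIM homeodomain factor ISL1, and were grown to confluence. After 2 days they received 10% serum with 350.0 nM insulin, 0.5 mM isobutylmethylxanthine (a phosphodiesterase inhibitor that raises cyclic AMP), 400.0 nM biotin and the glucocorticoid dexamethasone at 250.0 nM. Vector cells were taken at 0 h, just before the mixture, and at 0.5, 1, 2, 4, 8 and 48 h, and Flag-ISL1 cells at 0 and 48 h. Serum, insulin, isobutylmethylxanthine, dexamethasone and biotin were given together, so a change over time cannot be assigned to any of them alone. Serum is listed at 10% for the 0 h cells as well. No uninduced cells were taken after 0 h, so the mixture and time in culture cannot be told apart. The 0 h, 0.5 to 8 h and 48 h samples are numbered in separate blocks, so batch, if it differed, cannot be told apart from time. Each construct is overexpressed from a virus in 1 cell line, and the sources used here do not say whether a population came from 1 clone.

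The Isl1 signal went against the labels at 48 h. At 0 h the log2 value of Isl1 was 7.37, 7.47 and 7.17 in vector cells and 12.64, 12.62 and 12.61 in Flag-ISL1 cells. The 48 h arrays labelled ISL1 read 7.48, 8.01 and 7.47, and those labelled vector (WT in their titles) read 12.79, 12.76 and 12.72. Vector arrays from 0.5 to 8 h lay between 7.31 and 8.65. The arrays are therefore called the low-Isl1 arrays (labelled ISL1) and the high-Isl1 arrays (labelled vector) at 48 h, and the 48 h results depend on that reading. With the 48 h groups exchanged, 24 results of members reversed in direction, and some of these also gained or lost their call. They include the high-minus-low difference of every member at 48 h, whose sign turns by definition. Another 19 kept their direction and call. Of the rest, which kept their direction, 1 gained its call and 1 lost it. The sources used here do not say whether the probe set reads the Flag-ISL1 transcript.

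Glucose enters a fat cell through GLUT1, which sits at the surface at all times, and through GLUT4, which insulin brings to the surface. Hexokinase traps it as glucose 6-phosphate, which can run down glycolysis to pyruvate and lactate, be stored as glycogen, or feed the hexosamine pathway that makes UDP-N-acetylglucosamine for protein glycosylation. In fat tissue these genes are known as targets of insulin, glucocorticoids, cyclic AMP, MYC and the hypoxia factor HIF1A, and GLUT4 and glycogen synthase belong to the insulin-responsive state of the mature adipocyte.

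Bases before the annotated start are shown for 5 members that hold ACGTG there. Of these, Hk2, Pfkfb3 and Slc2a1 rose by 2 h and stood lower again at 8 h, Ldha was highest at 8 h, and Ppp1r3c fell. Pdk4, which also rose by 2 h and stood lower at 8 h, and Gys1 hold none of the motifs searched and are not shown. Gfpt2, which holds ACGTG further from the start, is not shown either. The stretches shown come from RefSeq (GRCm38.p6), in which 8 of the 9 members were matched. Each runs 5′ to 3′ on the gene's strand and ends at the base before the start, except that of Ppp1r3c, which runs from 200 to 90 bases before it. Capitals mark the hypoxia element core ACGTG and the cyclic AMP element core TGACG on either strand.
Ldha, chr7:46845654-46845803, plus strand: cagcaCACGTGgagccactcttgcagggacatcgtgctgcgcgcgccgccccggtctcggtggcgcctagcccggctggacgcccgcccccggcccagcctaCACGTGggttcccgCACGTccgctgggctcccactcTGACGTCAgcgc
Pfkfb3, chr2:11553930-11554049, minus strand: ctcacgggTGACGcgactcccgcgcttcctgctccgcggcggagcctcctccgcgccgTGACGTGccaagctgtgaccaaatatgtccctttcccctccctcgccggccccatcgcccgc
Hk2, chr6:82774455-82774574, minus strand: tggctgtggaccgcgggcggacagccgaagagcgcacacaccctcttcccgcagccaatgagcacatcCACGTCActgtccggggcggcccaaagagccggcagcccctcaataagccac
Slc2a1, chr4:119108625-119108744, plus strand: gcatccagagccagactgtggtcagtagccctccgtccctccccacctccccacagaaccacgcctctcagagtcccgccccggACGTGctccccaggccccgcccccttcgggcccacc
Ppp1r3c, chr19:36736694-36736804, minus strand: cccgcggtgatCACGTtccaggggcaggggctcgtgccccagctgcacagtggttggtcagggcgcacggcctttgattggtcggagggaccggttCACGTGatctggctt

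Each window searched ran from 250 bases before to 50 after a start, and both strands were read. The 8 matched members have 10 windows, since Pfkfb3 and Ldha have 2 each. ACGTG was found for 6 members (Ldha, Pfkfb3, Hk2, Slc2a1, Ppp1r3c and Gfpt2), in 7 of the 10 windows, and is in 19.6% of all 32851 windows. TGACG was found for 3 members (Ldha, Pfkfb3 and Hk2), in 5 of the 10 windows, against 20.8% of all. The E-box CACGTG, which contains ACGTG on both strands, was found for Ldha, Ppp1r3c and a second start of Pfkfb3, in 3 of the 10 windows, against 7.2% of all. The glucocorticoid receptor motif AGAACA was in 0 of the 10 windows and in 19.0% of all. Ldha holds the E-box letters at 145 and 48 bases before the start, and Ppp1r3c, which moved the other way, holds them at 104. A match is a description of letters, and no match says only that they are not in the window.

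In vector cells 8 of the 9 members changed between 0 and 8 h by limma's F test, and Slc2a4 did not pass (adjusted p = 0.0655), beside 51.7% of all genes. Pfkfb3, Pdk4, Hk2 and Gfpt2 rose first, Slc2a1 and Ldha by 2 h and Gys1 only by 4 h, while Ppp1r3c fell from 1 h on. At 0.5 h, 2 members were higher and 0 lower than at 0 h, beside 0.777% and 0.502% of all genes. At 1 h, 4 were higher and 1 lower (2.78% and 4.29% of all genes). At 2 h, 6 were higher and 1 lower (10.9% and 17.5%). At 4 h the counts were again 6 and 1 (17.3% and 22.7%), and at 8 h they were 5 and 3 (24.2% and 21.9%). The median member stood 0.41 above its 0 h level on the log2 scale at 2 h and 0.77 above it at 8 h, beside 0 and 0.07 for all genes. Between 2 and 8 h, 2 members were higher and 4 lower at the later time, beside 22% and 17% of all genes.

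**Figure D1:**
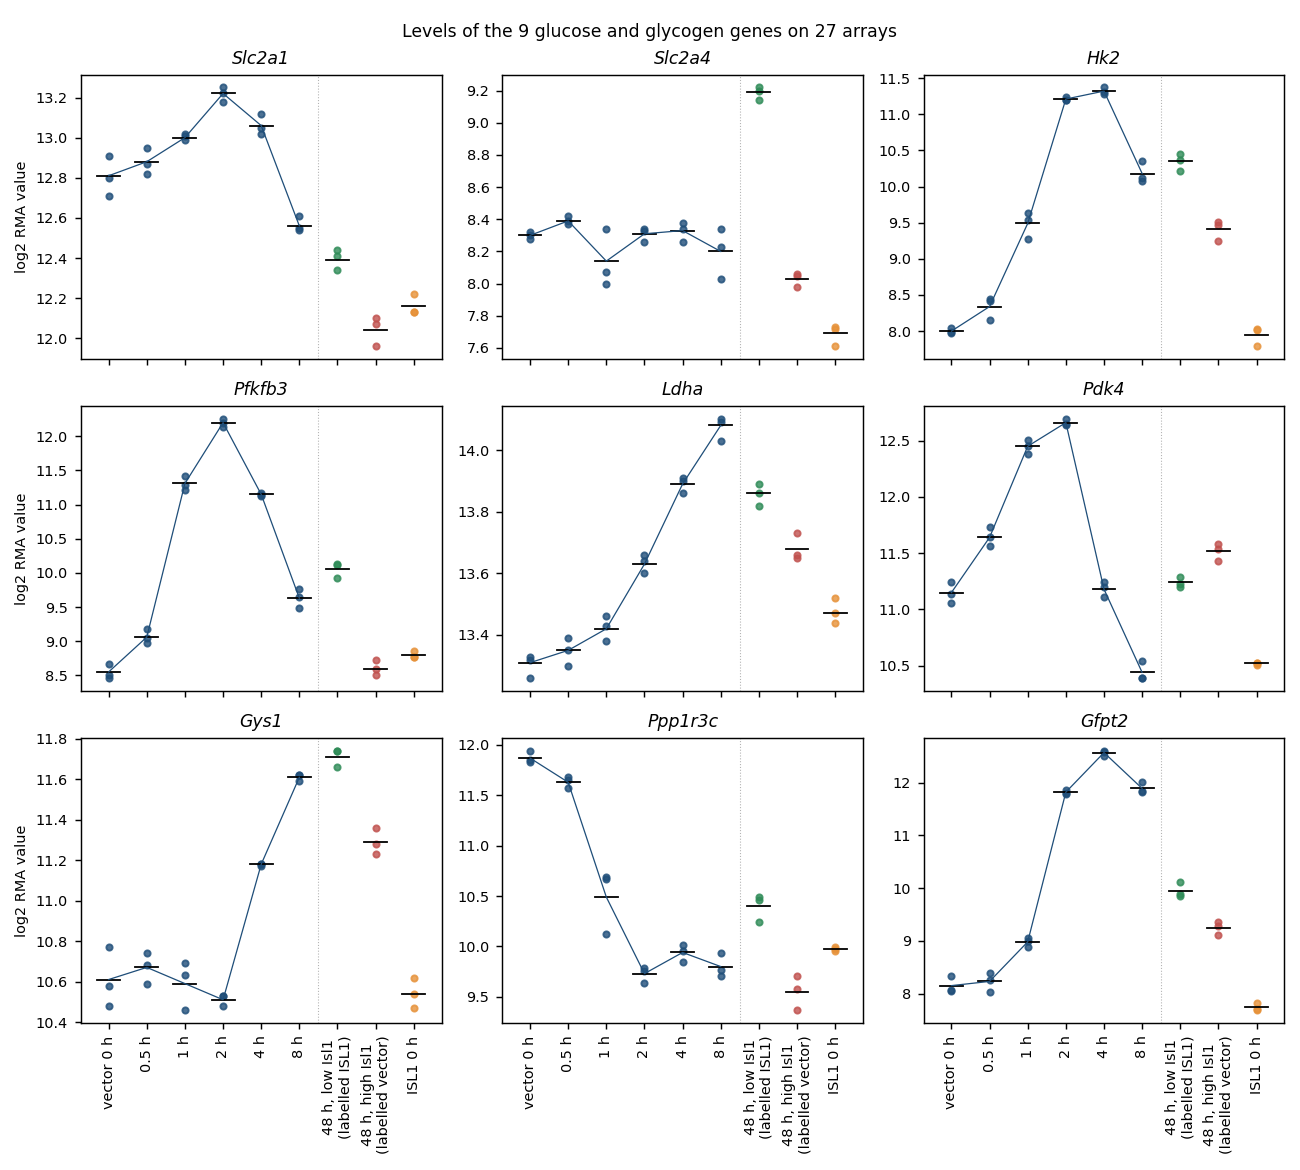
Log2 RMA values (vertical axes, one scale per gene) of the 9 members on all 27 arrays by group, with points for arrays, black bars for the means of 3 arrays and a blue line through the means of vector cells from 0 to 8 h. Pfkfb3, Pdk4 and Slc2a1 have their highest mean at 2 h, Hk2 and Gfpt2 at 4 h and Ldha at 8 h, while Slc2a4 and Gys1 are highest in the low-Isl1 48 h arrays (labelled ISL1) and Ppp1r3c at 0 h.

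Slc2a1, the gene of the basal transporter GLUT1, had a small rise and a fall below its start. Its log2 values were 12.91, 12.8 and 12.71 at 0 h, 13.18, 13.25 and 13.22 at 2 h, and 12.55, 12.54 and 12.61 at 8 h. The 3 sets of arrays did not overlap, with 2 h highest and 8 h lowest. It rose 1.32-fold by 2 h (log2 difference 0.41 ± 0.0605 SE, adjusted p = 6.01e-06) and stood 1.19-fold below its 0 h level at 8 h (-0.25 ± 0.0605, adjusted p = 0.00132). The 1 h arrays lay 0.19 above 0 h, which did not pass (adjusted p = 0.0527) and passes when arrays are centred on their medians (0.24, adjusted p = 0.0103).

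The group means of Slc2a1 ran from 12.04 in the high-Isl1 48 h arrays (labelled vector) through 12.16 in ISL1 cells at 0 h, 12.39 in the low-Isl1 48 h arrays, 12.56 at 8 h, 12.81 at 0 h and 12.88 at 0.5 h to 13.00 at 1 h, 13.06 at 4 h and 13.22 at 2 h. Neighbours overlapped only at 0 and 0.5 h and at 1 and 4 h. The genes whose 9 group means followed Slc2a1 most closely, among 4195 genes that spanned at least 1 log2 unit, were Mn1 (Pearson r = 0.995), Efnb1 (r = 0.993) and Penk (r = 0.98).

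Slc2a4, the gene of the insulin-responsive transporter GLUT4, showed little movement in the first hours. It read 8.3, 8.32 and 8.28 at 0 h, and its means from 0.5 to 8 h lay between 8.14 and 8.39. At 1 h its arrays read 8.34, 8.07 and 8.0, and without the first of them the 1 h difference would be -0.26 (adjusted p = 0.0266) instead of -0.16 (adjusted p = 0.313), and the F test would pass (adjusted p = 0.00254). In the low-Isl1 48 h arrays (labelled ISL1) it read 9.2, 9.22 and 9.14, above every other array of the series. The rise from 0 h was 1.85-fold (0.89 ± 0.0769, adjusted p = 2.93e-10).

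From ISL1 cells at 0 h (mean 7.69) and the high-Isl1 48 h arrays (8.03) up to 0.5 h (8.39), the groups of Slc2a4 from the second place on overlapped with their neighbours, and the low-Isl1 48 h group (9.19) stood apart. Its mean over all arrays, 8.29, is at the median gene's 8.28, and detection calls were not used here. The genes nearest to its 9 group means were Cidec and Plin4, which code for lipid droplet proteins, and Abcg1, a cholesterol exporter (r = 0.97, 0.962 and 0.959).

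Of 13 measured genes of the glucose transporter list, which includes both members, 2 were higher and 1 lower at 2 h, and 1 was higher and 4 lower at 8 h (3 and 4 with arrays centred on their medians). Among all genes, with arrays as deposited, 10.9% were higher and 17.5% lower at 2 h, and 24.2% and 21.9% at 8 h. The list's median log2 difference was 0.03 at 8 h, beside 0.07 for all genes. Slc2a13, a myo-inositol transporter, was 0.23 ± 0.0701 higher at 2 h (adjusted p = 0.014), and Slc2a9, a urate transporter, had fallen by 0.70 at 8 h (adjusted p = 7.07e-09).

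Hk2, which codes for the insulin-responsive hexokinase of muscle and fat, had one of the large rises. At 0 h Hk2 had a mean of 8.0, below the median gene's 8.28, and detection calls were not used. Its log2 values were 7.98, 8.04 and 7.99 at 0 h, 11.2, 11.19 and 11.24 at 2 h, and 11.28, 11.37 and 11.31 at 4 h. Every vector array from 0.5 to 8 h lay above all 3 at 0 h. It was 2.8-fold higher at 1 h (1.48 ± 0.0966, adjusted p = 7.56e-12), 9.95-fold at 4 h (3.31 ± 0.0966, adjusted p = 1.8e-19) and 4.53-fold at 8 h (2.18 ± 0.0966, adjusted p = 6.45e-16). The 0.5 h difference of 0.34 did not pass (adjusted p = 0.119) but passed without 0.5 h replicate 2 (0.43, adjusted p = 0.0361).

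At 8 h Hk2 was 1.03 below its 2 h level (SE 0.0966, adjusted p = 2.17e-09), and the low-Isl1 48 h arrays, at 10.45, 10.37 and 10.22, overlapped with those at 8 h. The other overlapping neighbours were 0 h and ISL1 0 h, and 1 h and the high-Isl1 48 h arrays. Preb, Nampt and Pde4b followed Hk2 most closely over the 9 group means (r = 0.992, 0.975 and 0.973). Among the members, Gfpt2 was nearest to Hk2 (r = 0.93 over 9 group means, which share arrays and normalization).

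Pfkfb3 codes for an enzyme with high kinase activity that makes fructose 2,6-bisphosphate, the activator of phosphofructokinase. It was one of the first to move, and its mean at 4 h was already below that at 2 h, unlike that of Hk2. Its log2 values were 8.67, 8.51 and 8.46 at 0 h, 9.04, 8.98 and 9.18 at 0.5 h, 12.14, 12.2 and 12.25 at 2 h, and 9.48, 9.76 and 9.65 at 8 h, and no arrays of these 4 groups overlapped. The rise was 1.43-fold at 0.5 h (0.52 ± 0.0806, adjusted p = 0.000166), 6.77-fold at 1 h (2.76, adjusted p = 2.76e-19) and 12.6-fold at 2 h (3.65, adjusted p = 7.76e-22). By 8 h it was 5.92-fold below its 2 h level (-2.56 ± 0.0806, adjusted p = 3.19e-18) and still 2.12-fold above 0 h (adjusted p = 1.52e-11).

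The means of Pfkfb3 ran from 8.55 at 0 h, 8.60 in the high-Isl1 48 h arrays and 8.80 in ISL1 cells at 0 h up through 0.5 h, 8 h, the low-Isl1 48 h arrays (10.06), 4 h and 1 h to 12.20 at 2 h. Only the lowest neighbouring pair overlapped. The nearest genes over the 9 group means were Usp2 (r = 0.946), Mideas (r = 0.945) and Unc45a (r = 0.944).

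Of the 4 measured genes that control fructose 2,6-bisphosphate, 2 were higher at 2 h and 3 higher with 1 lower at 8 h, Pfkfb3 included. Pfkfb4, its relative, read 8.79, 8.63 and 8.55 at 0 h and 11.01, 11.01 and 11.19 at 2 h, a rise of 2.42 ± 0.0924 (adjusted p = 4.87e-17). It had fallen by 1.67 between 2 and 8 h (adjusted p = 1.19e-13). Tigar, which codes for a phosphatase of fructose 2,6-bisphosphate, was 0.57 higher at 4 h (adjusted p = 5.97e-07) and 0.72 higher at 8 h (adjusted p = 1.08e-08). Pfkfb2, at -0.30 at 8 h (adjusted p = 0.0478), no longer passed with arrays centred (-0.23, adjusted p = 0.124) or after renewed quantile normalization (-0.21, adjusted p = 0.124), which left 0 of the list lower. Of all genes, with arrays as deposited, 10.9% were higher and 17.5% lower at 2 h, and 24.2% and 21.9% at 8 h.

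Ldha, whose enzyme turns pyruvate into lactate, climbed in small steps. It read 13.32, 13.33 and 13.26 at 0 h, 13.6, 13.66 and 13.64 at 2 h, 13.86, 13.9 and 13.91 at 4 h, and 14.03, 14.1 and 14.09 at 8 h. These 4 sets of arrays rose in that order with no overlap. The gain was 1.26-fold at 2 h (0.33 ± 0.0516, adjusted p = 1.21e-05) and 1.71-fold at 8 h (0.77 ± 0.0516, adjusted p = 1.96e-12).

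The order of the Ldha means was 0, 0.5 and 1 h, ISL1 at 0 h, 2 h, high-Isl1 48 h, low-Isl1 48 h, 4 h and 8 h. The first 4 of these overlapped with their neighbours, as did 2 h with the high-Isl1 48 h arrays and the low-Isl1 48 h arrays with 4 h. Med22, Ddx21 and Snora74a were nearest (r = 0.994, 0.989 and 0.988).

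Of the 28 genes listed from hexokinase to lactate transport, 23 were measured, Hk2 and Ldha included. At 2 h 3 of them were higher and 3 lower, beside 10.9% and 17.5% of all genes. The 3 lower ones, Pfkm, Eno2 and Eno3, did not pass with arrays centred, when 5 were higher and 0 lower, and renewed quantile normalization gave 5 and 3. The shares of all genes in this paragraph are for arrays as deposited. At 8 h 14 were higher and 5 lower, beside 24.2% and 21.9% of all genes. The list median was then 0.28, beside 0.07 for all genes. Slc16a1, the gene of the lactate transporter MCT1, rose as well. It read 9.28, 9.18 and 9.12 at 0 h and 12.83, 12.83 and 12.89 at 4 h, a rise of 3.66 ± 0.0727 (adjusted p = 1.09e-22). The phosphofructokinase genes divided, since at 8 h the liver-type Pfkl was 1.28 higher (adjusted p = 1.77e-12) and the muscle-type Pfkm had fallen by 0.71 (adjusted p = 2.87e-09). Ldhb, for the other lactate dehydrogenase subunit, had fallen by 0.90 (adjusted p = 2.33e-07).

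Pdk4 codes for a kinase that switches off pyruvate dehydrogenase and spares glucose, and its gene is a known target of glucocorticoids. It rose with Pfkfb3 and then fell below its start. Its log2 values were 11.24, 11.06 and 11.14 at 0 h, 11.64, 11.56 and 11.73 at 0.5 h, 12.64, 12.69 and 12.65 at 2 h, and 10.39, 10.54 and 10.39 at 8 h. None of these groups overlapped, and the 8 h arrays were the lowest. The rise was 1.41-fold at 0.5 h (0.49 ± 0.0642, adjusted p = 1.1e-05) and 2.85-fold at 2 h (1.51 ± 0.0642, adjusted p = 4.19e-16). At 4 h the difference from 0 h was 0.03 (adjusted p = 0.751), and at 8 h Pdk4 was 1.63-fold lower than at 0 h (-0.71 ± 0.0642, adjusted p = 6.47e-10).

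At the low end of the order, Pdk4 at 8 h (mean 10.44) overlapped with ISL1 cells at 0 h (10.52). Then 0 h, 4 h and the low-Isl1 48 h arrays overlapped in turn, as did the high-Isl1 48 h arrays (11.52) with 0.5 h, and 1 h and 2 h stood apart. The likest genes were less close than for other members: B3gnt2 (r = 0.888), Gem (r = 0.881) and Gadd45a (r = 0.881).

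Pdk2, a more widely expressed kinase of the same family, was lower at 4 h, when Pdk4 was back near its start. It read 10.67, 10.73 and 10.62 at 0 h and 8.66, 8.86 and 8.8 at 4 h, a fall of -1.90 ± 0.0907 (adjusted p = 2.99e-15). Over the 14 measured genes of pyruvate entry and dehydrogenase control, 5 were higher and 2 lower at 2 h, and 6 were higher and 6 lower at 8 h. The shares of all genes were 10.9% higher and 17.5% lower at 2 h, and 24.2% and 21.9% at 8 h. Pdp1, for the opposing phosphatase, was 0.62 higher at 1 h (adjusted p = 1.86e-09) and lower than at 0 h at 8 h (-0.28, adjusted p = 9.53e-05). Pcx, for pyruvate carboxylase, was 0.83 higher at 8 h (adjusted p = 7.65e-10).

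**Figure D2:**
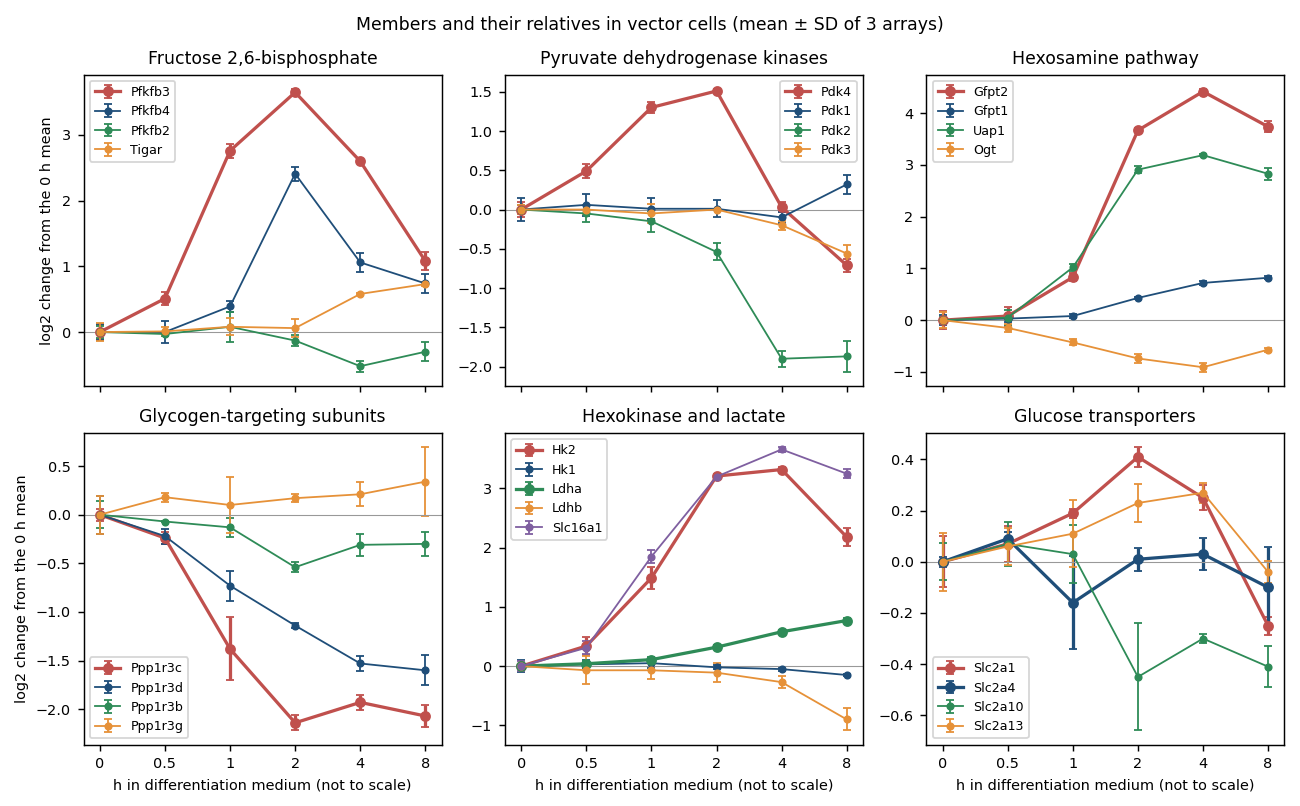
Change of the group mean from 0 h in vector cells (vertical axis, log2; error bars are the SD of 3 arrays) against hours in medium (not to scale) for members (thick lines) and related genes of the same step. Pfkfb4 peaks with Pfkfb3 at 2 h, Pdk2 falls by 1.90 at 4 h while Pdk4 is back at its start, Uap1 and Slc16a1 are well above their start at 4 h, as are Gfpt2 and Hk2, and Ppp1r3d falls beside Ppp1r3c.

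Gys1, for the glycogen synthase of muscle and fat, was late. It read 10.77, 10.58 and 10.48 at 0 h, 10.48, 10.53 and 10.53 at 2 h, 11.18, 11.18 and 11.17 at 4 h and 11.62, 11.62 and 11.59 at 8 h. The 2 h arrays lay within or at the edge of the 0 h range, and the 4 and 8 h arrays lay above it. The difference was -0.10 at 2 h (adjusted p = 0.384), 0.57 ± 0.0697 at 4 h (1.48-fold, adjusted p = 1.48e-07) and 1.00 at 8 h (2-fold, adjusted p = 4.29e-12).

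The means of Gys1 from 10.51 at 2 h through ISL1 0 h, 1 h and 0 h to 10.67 at 0.5 h overlapped, and 4 h, the high-Isl1 48 h arrays (11.29), 8 h and the low-Isl1 48 h arrays (11.71) followed without overlap. Ecsit, Grpel1 and Entpd6 were nearest over the 9 group means (r = 0.98, 0.972 and 0.97).

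Ppp1r3c codes for PTG, which holds protein phosphatase 1 on glycogen and so keeps glycogen synthase active. It was the only one of the 9 members to be lower at 1, 2 and 4 h. It read 11.94, 11.85 and 11.83 at 0 h, 10.12, 10.69 and 10.67 at 1 h, 9.79, 9.64 and 9.76 at 2 h, and 9.77, 9.93 and 9.71 at 8 h. Every vector array from 0.5 to 8 h lay below the 0 h arrays, and 2 and 8 h overlapped. The fall was 2.6-fold at 1 h (-1.38 ± 0.109, adjusted p = 4.49e-10) and 4.42-fold at 2 h (-2.14 ± 0.109, adjusted p = 1.85e-14), and at 0.5 h the difference of -0.24 did not pass (adjusted p = 0.743). Between 2 and 8 h it differed by 0.07 ± 0.109 (adjusted p = 0.643).

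The lowest means of Ppp1r3c, from the high-Isl1 48 h arrays (9.55) through 2, 8 and 4 h to ISL1 cells at 0 h (9.97), overlapped in turn. The low-Isl1 48 h arrays (10.40) overlapped with 1 h, and 0.5 h and 0 h stood apart above them. Camsap3, Zfp518a and Olfr1316 were the likest (r = 0.925, 0.915 and 0.912).

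Of 7 measured glycogen-targeting subunits, Ppp1r3c included, 0 were higher and 3 lower at 2 h, and 0 were higher and 4 lower at 8 h, with a list median of -0.30 at 8 h. With arrays centred, 1 was higher at 2 h and 2 at 8 h, and the lower counts did not change. Ppp1r3d fell as well, with differences of -0.74 ± 0.0909 at 1 h (adjusted p = 1.48e-06) and -1.61 ± 0.0909 at 8 h (adjusted p = 7.62e-14). Of 21 measured genes of glycogen synthesis and breakdown, Gys1 included, 2 were higher and 6 lower at 2 h, and 4 higher and 10 lower at 8 h. With arrays centred the counts were 2 and 2 at 2 h, when Ugp2, Pgm1, Pygb and Gsk3a did not pass, and 8 and 8 at 8 h. At 8 h Pygb, the brain-type glycogen phosphorylase, had fallen by 1.40 (adjusted p = 2.03e-14) and the phosphorylase kinase subunit Phkb had decreased by 0.90 (adjusted p = 3.53e-09). The branching enzyme gene Gbe1 was 0.57 higher (adjusted p = 0.00403). Beside these 2 lists, with arrays as deposited, 10.9% of all genes were higher and 17.5% lower at 2 h, and 24.2% and 21.9% at 8 h. The shares of all genes with arrays centred are not given here.

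Gfpt2, a form of the amidotransferase that sends fructose 6-phosphate into hexosamines, had the largest rise of any member over 0 to 8 h. At 0 h Gfpt2 had a mean of 8.15, below the median gene's 8.28, and detection calls were not used. Its log2 values were 8.34, 8.04 and 8.06 at 0 h, 8.89, 9.0 and 9.05 at 1 h, 11.86, 11.8 and 11.79 at 2 h, 12.6, 12.5 and 12.59 at 4 h, and 11.82, 12.01 and 11.85 at 8 h. The 2 and 8 h arrays overlapped, and the others did not. The rise was 1.78-fold at 1 h (0.83 ± 0.0934, adjusted p = 2.92e-07), 12.7-fold at 2 h (3.67, adjusted p = 1.13e-20) and 21.4-fold at 4 h (4.42 ± 0.0934, adjusted p = 2.39e-22).

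Apart from 0 and 0.5 h and from 2 and 8 h, no neighbours in the order of Gfpt2 overlapped, from ISL1 cells at 0 h (mean 7.74) to 4 h (12.57). Slc23a2, Prr5 and Top1 were nearest over the 9 group means (r = 0.994, 0.978 and 0.977).

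Of the 10 measured hexosamine genes, Gfpt2 included, 5 were higher and 2 lower at 2 h (6 and 1 with arrays centred) and 5 higher and 5 lower at 8 h. The shares of all genes, with arrays as deposited, were 10.9% and 17.5% at 2 h, and 24.2% and 21.9% at 8 h. Uap1, which makes UDP-N-acetylglucosamine in the last step, read 9.33, 9.4 and 9.27 at 0 h and 12.5, 12.51 and 12.55 at 4 h (3.18 ± 0.0753, adjusted p = 1.95e-21). Gfpt1, the other amidotransferase gene, was 0.43 higher at 2 h (adjusted p = 1.21e-06), and Pgm3 was 0.95 higher at 8 h (adjusted p = 1.05e-07). Ogt, whose enzyme puts N-acetylglucosamine on proteins, had fallen by 0.91 at 4 h (adjusted p = 1.1e-10). Nagk, of the salvage route, had fallen by 1.33 at 8 h (adjusted p = 1.35e-13).

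Genes listed as regulators of glucose genes moved as well, and their part in the members' changes was not tested. Of the 17 on this list, which includes Txnip, a brake on glucose uptake, 6 were higher and 6 lower at 2 h. Myc was up by 1.54 ± 0.0787 at 0.5 h (adjusted p = 1.33e-13) and 3.32 at 2 h (adjusted p = 2.85e-21). Txnip was lower, at -1.05 at 2 h (adjusted p = 2.45e-13). Of 18 measured genes between the insulin receptor and GLUT4 traffic, 4 were higher and 2 lower at 2 h (6 and 4 after renewed quantile normalization) and 6 higher and 9 lower at 8 h. Beside the lists of this paragraph, with arrays as deposited, 10.9% of all genes were higher and 17.5% lower at 2 h, and 24.2% and 21.9% at 8 h. The insulin receptor substrates divided, with Irs2 2.44 ± 0.0903 higher (adjusted p = 2.35e-17) and Irs1 lower, at -2.45 ± 0.0849 (adjusted p = 5.89e-18) at 2 h. Tbc1d4, whose product AS160 holds GLUT4 inside the cell, was 1.30 higher at 8 h (adjusted p = 1.24e-11). The pentose phosphate list had 1 of 7 genes higher at 2 h (2 with arrays centred) and 4 of 7 at 8 h, with 0 lower at either time.

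**Figure D3:**
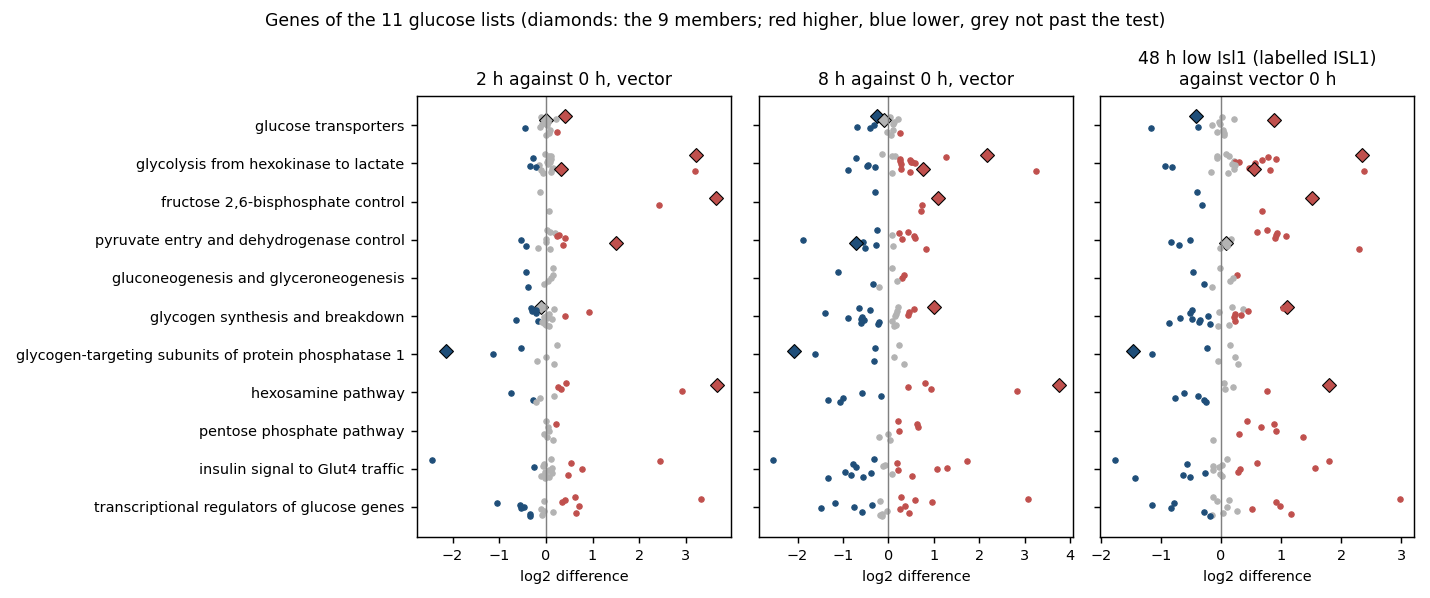
Log2 differences (horizontal axes) of every measured gene of 11 glucose lists (rows) at 2 h and 8 h against 0 h in vector cells and in the low-Isl1 48 h arrays (labelled ISL1) against vector 0 h, with diamonds for the 9 members and red, blue and grey for higher, lower and not past the test. At 2 h most genes of most lists are grey while members such as Gfpt2 and Pfkfb3 lie past 3, and at 8 h fewer genes of most lists are grey.

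By 48 h the low-Isl1 arrays (labelled ISL1) had most of the early risers above the 0 h level, and Slc2a4 with them. Against vector cells at 0 h, 6 members were higher and 2 lower, beside 21.3% and 20% of all genes. The higher ones were Slc2a4, Hk2 (5.07-fold), Gfpt2 (3.49-fold), Pfkfb3 (2.85-fold), Gys1 (2.15-fold) and Ldha (1.47-fold), and the lower ones were Ppp1r3c (2.77-fold) and Slc2a1 (1.33-fold), with adjusted p of at most 2.28e-06. Pdk4 read 11.23, 11.2 and 11.29, within 0.09 ± 0.0642 of 0 h (adjusted p = 0.288).

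Against vector cells at 8 h, 4 members were higher and 3 lower in these arrays, beside 15.7% and 14.9% of all genes. Gfpt2 was 3.85-fold lower (-1.94 ± 0.0934, adjusted p = 5.01e-15), Slc2a4 1.98-fold higher (0.99, adjusted p = 7.29e-11), Pdk4 1.74-fold higher (0.80, adjusted p = 1.39e-10) and Ppp1r3c 1.51-fold higher (0.60, adjusted p = 8.65e-05). Pfkfb3 was 0.43 higher (adjusted p = 0.00013) and Ldha lower, at -0.22 ± 0.0516 (adjusted p = 0.00138). Slc2a1 was lower, at -0.17 ± 0.0605 (adjusted p = 0.0351), a call lost without 8 h replicate 1 or 3 or without low-Isl1 replicate 1 or 3 (adjusted p 0.0587 to 0.145) and after renewed quantile normalization (-0.11, adjusted p = 0.0943). With only both groups in the fit, neither Ldha (adjusted p = 0.0848) nor Slc2a1 (adjusted p = 0.204) passed.

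Around these members, 11 of 23 glycolysis genes were higher and 2 lower in the low-Isl1 48 h arrays than in vector cells at 0 h, and 6 of 7 pentose phosphate genes were higher and 0 lower (list median 0.67, beside 0.06 for all genes). Taldo1, for transaldolase, was 1.37 ± 0.0903 higher (adjusted p = 1.57e-12). Of the pyruvate list 7 of 14 were higher and 3 lower, led by Pcx at 2.29 ± 0.0762 (adjusted p = 1.5e-18). Gyg, for the glycogen primer glycogenin, was 1.03 higher (adjusted p = 2.2e-11). Among all genes 21.3% were higher and 20% lower in this comparison.

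The cell markers of these arrays differed as well, and their part in the results was not tested. Of 10 adipocyte markers 8 were higher and 0 lower in the low-Isl1 48 h arrays than in vector cells at 0 h, and all 8 fibroblast or preadipocyte markers were lower. The mean log2 value of the adipocyte list was 10.27 to 10.42 over the 0 h arrays, 9.87 to 9.98 at 8 h and 11.46 to 11.58 in the low-Isl1 48 h arrays. That of the fibroblast list was 13.09 to 13.18, 12.46 to 12.49 and 11.92 to 12.07, so the markers of the labelled fibroblast line were bright in every group. Lep, a defining product of mature fat, stayed between 6.22 and 6.76 on every array. In a bulk sample, more cells of a kind and more RNA per cell cannot be told apart.

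Lyz2, a lysozyme gene of macrophages, was at 12.1, 12.03 and 12.03 in vector cells at 0 h and 11.38, 11.43 and 11.35 at 8 h, but at 7.61, 7.44 and 7.65 in the low-Isl1 48 h arrays. It was at 7.44, 7.07 and 7.12 in ISL1 cells at 0 h and 6.79, 6.66 and 6.82 in the high-Isl1 48 h arrays. Ptprc and Adgre1, which define blood cells and macrophages, lay between 6.06 and 6.44 and between 5.87 and 6.2 on all arrays. Cd68 spanned 8.14 to 9.47 and Cd14 7.79 to 9.41, and the mean of the 7-gene list was 7.73 to 8.11 in vector cells from 0 to 8 h and 6.94 to 7.22 in the other 3 groups. That mean includes Lyz2. Between ISL1 and vector cells at 0 h Lyz2 differed by -4.84 and Cd14 by -0.45, and Ptprc, Cd68, Csf1r, Itgam and Adgre1 did not pass. The endothelial, epithelial and muscle list means stayed within 6.95 to 7.38, 7.36 to 7.75 and 7.8 to 8.29. The sources used here do not say whether the cells of 0 to 8 h and of 48 h were 1 population, and the part of Lyz2 in the results was not tested.

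Before induction, cells with Flag-ISL1 differed from vector cells in 7 of the 9 members, with 2 higher and 5 lower, beside 15.3% and 10.4% of all genes. The largest difference was in Ppp1r3c, at 9.97, 9.95 and 9.99 against 11.94, 11.85 and 11.83, which was 3.74-fold lower (-1.90 ± 0.109, adjusted p = 4.24e-13). Slc2a1 read 12.22, 12.13 and 12.13 and was 1.57-fold lower (adjusted p = 3.28e-09). Pdk4 read 10.52, 10.51 and 10.52 and was 1.55-fold lower (adjusted p = 1.64e-08), and Slc2a4, at 7.73, 7.61 and 7.72, was 1.53-fold lower (adjusted p = 5.92e-07). In these 4 genes every Flag-ISL1 array lay below every vector array, but the share of all genes without overlap is not given here. Pfkfb3 and Ldha, whose calls depend on single arrays, did not overlap either.

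Gfpt2 was 1.32-fold lower (-0.40 ± 0.0934, adjusted p = 0.00156), also without overlap. Its means in both groups, 7.74 and 8.15, were below the median gene's 8.28. Pfkfb3 was 0.25 ± 0.0806 higher (adjusted p = 0.0213) and Ldha 0.17 ± 0.0516 higher (adjusted p = 0.015). Leaving out vector replicate 3 or ISL1 replicate 2 ended both calls (adjusted p 0.0719 to 0.116), and so did vector replicate 2 for Pfkfb3 (adjusted p = 0.0729). Hk2 (-0.06 ± 0.0966, adjusted p = 0.774) and Gys1 (-0.07 ± 0.0697, adjusted p = 0.587) did not pass.

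In the same comparison 9 of 10 adipocyte markers were lower and 0 higher in Flag-ISL1 cells (median -2.19), with list means of 8.23 to 8.32 against 10.27 to 10.42. Adipoq, which codes for adiponectin, read 6.47, 6.6 and 6.62 against 10.94, 10.73 and 10.6. The fibroblast list had 6 of 8 lower, with means of 12.68 to 12.72 against 13.09 to 13.18. The part of these differences and of Lyz2 in the members' differences was not tested.

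The glycolysis list had 7 of 23 genes higher and 0 lower in Flag-ISL1 cells at 0 h (2 lower after renewed quantile normalization). The platelet-type phosphofructokinase Pfkp was 1.20 ± 0.0836 higher (adjusted p = 1.86e-11) and Slc16a1 0.73 higher (adjusted p = 1.14e-08). Of the 7, Bpgm (0.29, adjusted p = 0.0497) did not pass with arrays centred (adjusted p = 0.0592) or after renewed quantile normalization (adjusted p = 0.14). Of the insulin signal list 2 of 18 were higher and 7 lower, led by Irs1 at -1.38 ± 0.0849 (adjusted p = 1.63e-12). Of the 17 genes of the regulator list 2 were higher and 9 lower, led by Ppargc1a at -1.61 ± 0.103 (adjusted p = 3.34e-12), which codes for the coactivator PGC-1 alpha. Among all genes, with arrays as deposited, 15.3% were higher and 10.4% lower in this comparison.

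At 48 h all 9 members differed between the high-Isl1 arrays (labelled vector) and the low-Isl1 arrays (labelled ISL1), with 8 lower and 1 higher where Isl1 was high, beside 14% and 13.8% of all genes. The median member was -0.70, beside -0.03 for all genes. No member's 2 groups overlapped, but the share of all genes without overlap is not given here. Pfkfb3 read 8.72, 8.51 and 8.59 against 10.13, 9.92 and 10.12, a 2.74-fold lower level (-1.45 ± 0.0806, adjusted p = 1.58e-13). Slc2a4 read 8.05, 8.06 and 7.98 against 9.2, 9.22 and 9.14, which was 2.23-fold lower (-1.16 ± 0.0769, adjusted p = 5.68e-12). Hk2 read 9.47, 9.25 and 9.51 against 10.45, 10.37 and 10.22, 1.91-fold lower (-0.94 ± 0.0966, adjusted p = 2.08e-08).

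The remaining differences at 48 h were smaller. Ppp1r3c was 1.8-fold lower with high Isl1 (adjusted p = 8.12e-07), Gfpt2 1.62-fold (adjusted p = 1.39e-06), Gys1 1.34-fold (adjusted p = 2.66e-05), Slc2a1 1.28-fold (adjusted p = 4.68e-05) and Ldha 1.13-fold (adjusted p = 0.00862). Ldha did not pass with only both groups in the fit (adjusted p = 0.181). Pdk4 read 11.58, 11.43 and 11.54 against 11.23, 11.2 and 11.29 and was the exception, 1.21-fold higher (0.28 ± 0.0642, adjusted p = 0.0014).

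Here too 9 of 10 adipocyte markers were lower and 0 higher with high Isl1 (median -1.31), with list means of 9.95 to 10.08 against 11.46 to 11.58, and Adipoq stood at 7.25, 7.03 and 7.41 against 10.95, 10.59 and 10.98. The fibroblast list had 1 of 8 higher and 2 lower. The part of the adipocyte markers' difference in the members' was not tested.

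Of the 23 glycolysis genes at 48 h, Hk2 and Ldha included, 2 were higher with high Isl1, 3 were lower and 18 did not pass (list median -0.01), and 7 were lower after renewed quantile normalization. Among all genes, with arrays as deposited, 13.8% were higher and 14% lower. Of 13 transporter genes 2 were higher and 2 lower, and those higher with high Isl1 were Slc2a13 (1.84 ± 0.0701, adjusted p = 8.26e-17) and Slc2a10 (0.98 ± 0.0844, adjusted p = 7.68e-10). Of 14 pyruvate genes 3 were higher and 7 lower, with the dehydrogenase subunit Dld at -0.84 (adjusted p = 2.1e-08) and the pyruvate carrier Mpc1 at -0.62 (adjusted p = 2.16e-08). Sort1, for sortilin of the GLUT4 storage vesicles, was lower, at -1.31 ± 0.104 (adjusted p = 1.78e-10), and so was Ppargc1a, at -1.93 ± 0.103 (adjusted p = 7.11e-14).

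**Figure D4:**
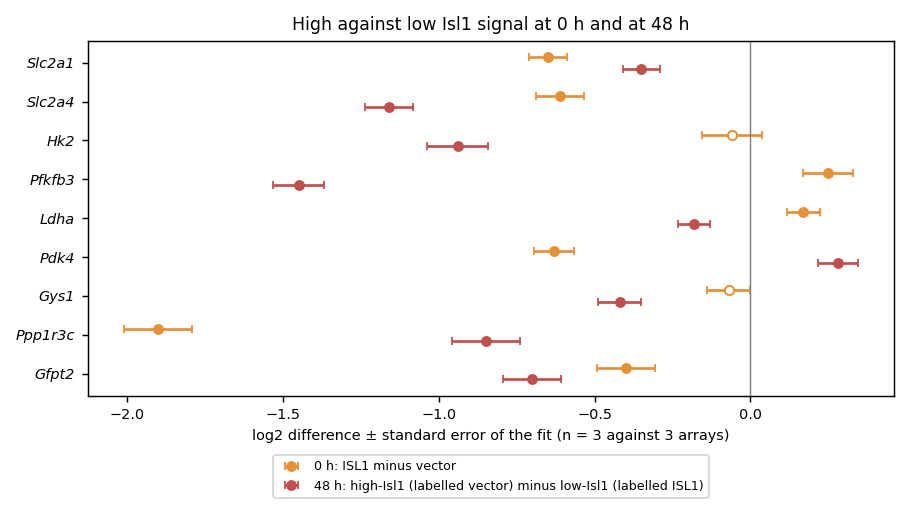
Log2 difference between arrays with high and low Isl1 signal (horizontal axis; error bars are the standard error of the fit, 3 against 3 arrays) for each member at 0 h (orange, ISL1 minus vector) and at 48 h (red, labelled vector minus labelled ISL1), with open symbols for differences that did not pass. Pfkfb3 and Ldha lie to the right of 0 at 0 h and to the left at 48 h, Pdk4 the reverse, and Ppp1r3c is at -1.90 at 0 h and -0.85 at 48 h.

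The difference between high and low Isl1 was itself compared between the times, as the 48 h difference minus the 0 h difference. It passed for 8 members, 3 of them higher and 5 lower, beside 11.4% and 13.2% of all genes. Pfkfb3 went from 0.25 to -1.45 (interaction -1.70 ± 0.114, adjusted p = 1.83e-11) and Hk2 from -0.06 to -0.94 (-0.88 ± 0.137, adjusted p = 1.53e-05). Ppp1r3c went from -1.90 to -0.85 (1.06 ± 0.154, adjusted p = 6.18e-06), and Pdk4 from -0.63 to 0.28 (0.91 ± 0.0908, adjusted p = 1.56e-08). For Gfpt2 the interaction of -0.29 ± 0.132 did not pass (adjusted p = 0.118). All 48 h values of this comparison rest on the reading of the labels given above.

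Cells with high Isl1 moved from 0 to 48 h as well. Between ISL1 cells at 0 h and the high-Isl1 48 h arrays (labelled vector), 6 members were higher and 1 lower at 48 h, beside 14.2% and 19% of all genes. Gfpt2 rose 2.84-fold (1.51 ± 0.0934, adjusted p = 6.41e-13), Hk2 2.76-fold (1.46, adjusted p = 2.21e-12), Pdk4 2-fold (1.00, adjusted p = 1.33e-12) and Gys1 1.68-fold (0.75, adjusted p = 1.57e-09). Slc2a4 rose 1.27-fold (adjusted p = 0.000776) and its arrays lay below those of vector cells at 0 h, and Ldha 1.15-fold (adjusted p = 0.00259). Ppp1r3c fell 1.33-fold (adjusted p = 0.00359).

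Pfkfb3 differed by -0.19 ± 0.0806 in that comparison and did not pass (adjusted p = 0.0695), though it passed without high-Isl1 replicate 1 (-0.25, adjusted p = 0.034). Slc2a1 did not pass at -0.12 ± 0.0605 (adjusted p = 0.158). The adipocyte list had 9 of 10 markers higher over the same interval (median 1.24), and the pentose phosphate list had 6 of 7 genes higher. Pcx rose by 2.92 ± 0.0762 (adjusted p = 1.32e-20).

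The arrays were alike in their spread of values, with medians of 7.89 to 8.07, SDs of 2.2 to 2.3 and mean correlations with their own group of 0.9938 to 0.9985. Centring each array on its median shifts the split of all calls but turned no call of a member or of a gene of the lists to the other direction. It ended 62 calls of genes of the lists, cell markers included, 53 of them lower calls. Of those, 9 were at 2 h, 17 at 4 h and 6 at 8 h, each against 0 h. Among all calls, the share that was higher was 39.3% at 1 h as deposited and 55.4% when centred, 38.4% and 57.8% at 2 h, 43.3% and 61.1% at 4 h, and 52.5% and 65.1% at 8 h. The same shares for the high-Isl1 48 h arrays against ISL1 0 h were 42.6% and 57.4%. Shares of all genes printed beside the lists are for arrays as deposited. They do not match list counts given after centring or renewed quantile normalization.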

How the data were processed

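Total RNA from each of 27 samples was hybridised to its own mouse gene array. The authors processed the arrays with RMA, per the submitters' processing notes; the sources used here give neither the program nor its release. The deposited values run from 3.35 to 14.85 and were read as log2 values on that ground, and 0 were missing. Of 28853 probe sets the platform table pairs 21789 with a single symbol, 1621 with several and 5443 with no symbol. Only the first kind was used, with the brightest probe set for the 999 genes that had more than 1, which left 19938 genes.

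A linear model of the 9 group means was fitted with limma 3.58.1 (R 4.3.3, prior degrees of freedom 6.56). Its 13 comparisons were two-sided, with Benjamini-Hochberg adjustment over all genes and a threshold of 0.05, and SE is the moderated standard error. The comparison of 8 h with 2 h was added after the levels were seen. The members and lists were chosen with earlier results of these data known. Named beside the members and Isl1 are, from each list and comparison, at most 2 rises and 2 falls past the test, the largest ones, and the 3 genes nearest to a member over the 9 group means. Other names, such as Lep, Ptprc and Adgre1, were chosen after their values were seen.

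On simulated data for the 1 h comparison over 19938 genes, 92.5% of 67 genes changed 1.5-fold and 100% of 67 changed 2-fold were recovered, with 13 false among 208 calls. Same-numbered replicates deviated together (every correlation over 0.1) in 4 of 36 pairs of groups, the 48 h groups among them. Alternatives were other array scalings, every probe set, dim genes left out, a variance trend, only the compared groups, a replicate block, each array left out, and the 48 h groups exchanged. The number of arrays limits the precision.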

Additional observations from a re-analysis of the deposited data

Results flagged for a closer look

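For 8 members the high-minus-low Isl1 difference itself differed between 48 h and 0 h by the interaction test. The 48 h difference less the 0 h difference, on the log2 scale, was 0.3 for Slc2a1, -0.55 for Slc2a4, -0.88 for Hk2, -1.7 for Pfkfb3, -0.35 for Ldha, 0.91 for Pdk4, -0.36 for Gys1 and 1.06 for Ppp1r3c. The adjusted p was at most 0.00953. Among all genes 11.4% passed upward and 13.2% downward. The values take the 48 h arrays by their Isl1 signal, against their labels.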

How the results depend on the processing

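With 3 arrays a group, the call for a small difference can turn on 1 array. The count of genes past the test at 1 h went from 1410 to 912 with only both groups in the fit, where fewer arrays estimate the spread. The other comparisons' counts stayed within 1.5 times under the alternatives that were run. The replicate block left the 48 h count at 5534 (5553 without it) and changed no call of a member in any comparison. Reading the 48 h arrays by their labels exchanges them and turns the 9 high-minus-low differences to 0.35 (Slc2a1), 1.16 (Slc2a4), 0.94 (Hk2), 1.45 (Pfkfb3), 0.18 (Ldha), -0.28 (Pdk4), 0.42 (Gys1), 0.85 (Ppp1r3c) and 0.7 (Gfpt2). It turns the interaction to 1.77 for Slc2a4, 0.99 for Hk2, 1.2 for Pfkfb3, 0.01 for Ldha (adjusted p = 0.941), 0.49 for Gys1 and 1.1 for Gfpt2, and leaves it positive for Slc2a1 (1.01), Ppp1r3c (2.75) and Pdk4 (0.36). The arrays then compared with vector 0 h give -0.27 for Slc2a4, and Pfkfb3, at 0.06, no longer passes (adjusted p = 0.661), while Pdk4, at 0.37, now passes (adjusted p = 3.95e-05). Against vector 8 h they give -0.77 for Hk2, -1.03 for Pfkfb3 and -0.32 for Gys1. Slc2a4, at -0.17 (adjusted p = 0.0905), and Ppp1r3c, at -0.25 (adjusted p = 0.0786), no longer pass there. Against ISL1 0 h the other 48 h arrays give 0.24 for Slc2a1, 1.26 for Pfkfb3 and 0.43 for Ppp1r3c. Without the dimmer genes Slc2a4 passes the F test (adjusted p = 0.0288). Gfpt2's interaction passes after renewed quantile normalization (-0.35, adjusted p = 0.0148) and without vector 0 h replicate 1 (-0.39, adjusted p = 0.029). Where no cause is named, the cause was not tested.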
